A study of Mus musculus with 24 samples.

Results

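Transcripts of the T cell receptor complex and of the receptors that costimulate or restrain T cells were followed in splenic dendritic cells (DCs) of neonatal mice. The 10 genes were Cd3d, Cd3e, Cd3g, Cd28, Ctla4, Icos, Thy1, Cd5, Gata3 and Lat. They were taken as every probe set whose only gene symbol in the platform annotation was one of these names, which gave 12 of the 22626 probe sets tested and 10 of the 12393 genes they named. Cd28 and Icos had 2 probe sets each, and the brighter one stood for the gene. RNA was measured on 24 Affymetrix Mouse430A 2.0 arrays of CD11c-positive DCs, selected with magnetic beads from the collagenase-treated spleens of BALB/c pups on day 14 of life. At-risk pups were born to mothers made asthmatic with ovalbumin (OVA) and mated with normal males, and normal pups were born to control mothers. Stimulated pups had received 1 intraperitoneal injection of 5 µg of OVA with 1 mg of alum, on day 3 by the sample labels and on day 4 by the methods, and naïve pups had received none.

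Set 1 held 4 stimulated at-risk arrays (AF88 to AF91), 4 stimulated normal arrays (AF84 to AF87), 4 naïve at-risk arrays (AF80 to AF83) and 3 naïve normal arrays (AF76, AF77 and AF79). Set 2, whose RNA was NuGEN amplified, held 5 stimulated at-risk arrays (AF123 to AF127) and 4 stimulated normal arrays (AF118 to AF121). It had no naïve array, so the effect of the injection could be read only in Set 1. The methods call the arrays biological replicates, but the sources used here do not give how many pups stood behind each array, and the p-values measure the spread between these arrays. All levels below are log2 RMA intensities, and all differences are log2 fold changes from limma. A gene was called where its adjusted p (Benjamini-Hochberg, over all probe sets) did not exceed 0.05 and the higher group lay at least 25% above the lower.

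T cells read antigen through a receptor whose variable chains cannot signal alone. The CD3 chains, encoded by Cd3d, Cd3e and Cd3g, carry the signal into the cell, and the membrane adaptor LAT gathers the enzymes that pass it on. CD28 and ICOS are costimulatory receptors, CTLA-4 is an inhibitory receptor that competes with CD28 for its ligands on DCs, and CD5 dampens receptor signaling. Thy1 is a surface glycoprotein of mouse T cells, and GATA3 is a transcription factor of T cell development and of the Th2 cells that drive allergic asthma. DCs carry the ligands of these receptors. In RNA of a cell mixture, fewer cells of a type and less RNA per cell cannot be told apart.

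Several of the genes are neighbours in the mouse genome. Among protein-coding genes, Cd28, Ctla4 and Icos follow one another on chromosome 1 and Cd3g, Cd3d and Cd3e on chromosome 9, where Thy1 also lies. RefSeq promoters of build GRCm38.p6, from 250 bases before to 50 bases after the start of the gene, were at hand for 7 of the 10 genes. Those of the CD3 cluster are shown because its 3 genes moved together on the arrays, and that of Ctla4 because it had the largest response to the injection of the 10 genes. Capitals mark matches on either strand to the core motifs of 4 families of T cell transcription factors. The motif searched for the GATA factors was AGATAA. That for the ETS factors was GGAAGT. That for the RUNX factors was TGTGGT, and that for the TCF and LEF factors was CTTTGA. No match overlapped another. The sequences lie at chr9:44981536-44981835 (plus strand) for Cd3d, chr9:45009562-45009861 (minus strand) for Cd3e, chr9:44980382-44980681 (minus strand) for Cd3g and chr1:60908775-60909074 (plus strand) for Ctla4.
Cd3d: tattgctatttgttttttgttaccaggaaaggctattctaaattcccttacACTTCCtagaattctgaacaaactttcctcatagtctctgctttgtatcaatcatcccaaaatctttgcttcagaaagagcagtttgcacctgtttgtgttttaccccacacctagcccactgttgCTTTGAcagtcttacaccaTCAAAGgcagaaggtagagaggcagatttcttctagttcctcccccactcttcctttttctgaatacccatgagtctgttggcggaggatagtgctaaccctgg
Cd3e: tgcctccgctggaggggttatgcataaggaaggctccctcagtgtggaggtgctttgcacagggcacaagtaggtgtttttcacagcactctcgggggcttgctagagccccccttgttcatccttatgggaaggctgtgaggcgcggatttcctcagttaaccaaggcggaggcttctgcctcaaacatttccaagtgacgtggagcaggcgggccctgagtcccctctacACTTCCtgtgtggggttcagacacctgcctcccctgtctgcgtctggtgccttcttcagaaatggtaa
Cd3g: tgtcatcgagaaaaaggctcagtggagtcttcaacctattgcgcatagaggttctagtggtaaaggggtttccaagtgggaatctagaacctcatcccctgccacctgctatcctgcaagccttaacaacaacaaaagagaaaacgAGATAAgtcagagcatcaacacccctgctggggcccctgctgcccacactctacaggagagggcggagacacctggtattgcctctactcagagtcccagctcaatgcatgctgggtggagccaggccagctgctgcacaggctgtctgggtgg
Ctla4: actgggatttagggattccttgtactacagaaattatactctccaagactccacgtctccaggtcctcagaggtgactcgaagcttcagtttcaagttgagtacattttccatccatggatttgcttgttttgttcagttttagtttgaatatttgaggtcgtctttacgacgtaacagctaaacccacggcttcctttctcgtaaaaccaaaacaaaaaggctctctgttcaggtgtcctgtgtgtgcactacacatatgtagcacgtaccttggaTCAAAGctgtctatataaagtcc

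The Cd3d window held 1 ETS match and 2 TCF matches, the Cd3e window 1 ETS match, the Cd3g window 1 GATA match and the Ctla4 window 1 TCF match. Of the other promoters at hand, that of Cd5 held 1 ETS match, that of Lat 1 RUNX match and that of Gata3 none of the 4 motifs. Among 32851 promoters of the same length, 23.8% held the ETS letters, 16.8% the RUNX letters, 16.0% the TCF letters and 11.2% the GATA letters. Each motif is thus common, and no motif was shared by all 3 CD3 genes.

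The markers of the labelled cell type were high on all arrays. Itgax, which encodes CD11c, lay between 12.63 and 13.10 on the 24 arrays, H2-Aa of MHC class II between 13.84 and 14.14, and the mean of 14 conventional DC markers between 12.42 and 12.72. The T cell genes nonetheless had values on every array, with Cd3e between 8.11 and 10.17, but some were dim. Among all probe sets of an array, Cd3e lay between the percentiles 50 and 72.9. Ctla4 lay between 24.8 and 55.9, and Gata3 between 26 and 43.8. The mean level of the 10 genes was 7.78 (7.72 to 7.85) in stimulated at-risk, 8.00 (7.497 to 8.66) in stimulated normal, 8.81 (8.76 to 8.85) in naïve at-risk and 9.25 (9.24 to 9.27) in naïve normal arrays of Set 1. In Set 2 it was 7.68 (7.43 to 7.91) in stimulated at-risk and 8.29 (8.26 to 8.32) in stimulated normal arrays. The stimulated normal arrays of Set 1 stood apart by their spread, with an SD of 0.49 for this mean against 0.018 to 0.20 in the other groups. AF85 was the highest of them in 9 of the 10 genes and AF86 the lowest in all 10 genes. The value without 1 or both of these arrays is given below where leaving them out changed a call or a sign. This was not complete for the tests of interaction, where single values with arrays left out were followed for only some genes.

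**Figure D1:**
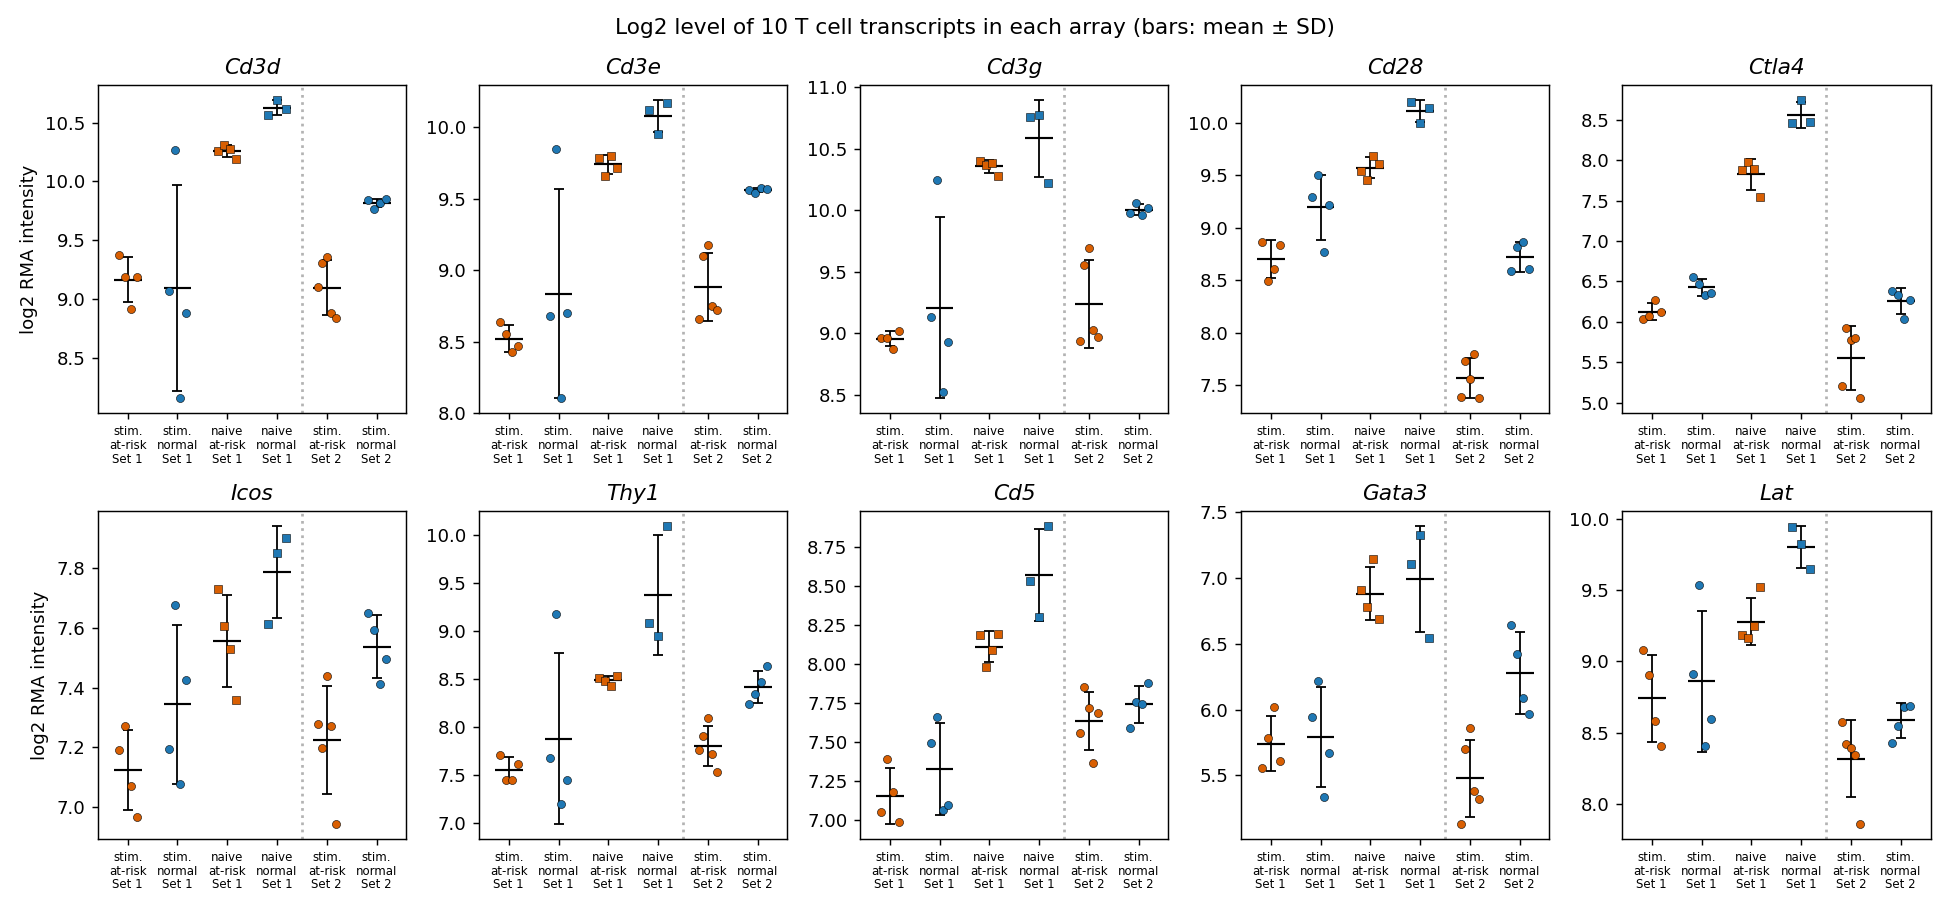
Log2 RMA intensity (y axis) of the 10 genes in each of 24 arrays, by group (x axis), with stimulated arrays as circles, naïve arrays as squares, at-risk arrays in orange and normal arrays in blue. Bars give the mean ± SD, and the dotted line parts Set 1 from Set 2. The single high circle among the stimulated normal arrays of Set 1 is AF85, at 10.27 for Cd3d and 9.18 for Thy1.

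The first comparison asked how the 10 genes changed in the selected cells after the neonatal injection of OVA with alum, in at-risk pups. Naïve pups had no injection, so effects of OVA, alum and the injection itself cannot be told apart. Of the 10 genes, 8 fell and none rose: Ctla4, Cd3g, Cd3e, Gata3, Cd3d, Cd5, Cd28 and Icos were 1.35-fold to 3.25-fold lower in stimulated than in naïve at-risk arrays. Counted by probe set, 9 of 12 were called, all lower, where 3.46% of all probe sets were called lower. The median change of the 10 genes was -1.03 on the log2 scale, against -0.01 over all probe sets. In all 10 genes each stimulated array lay below each naïve array, a separation seen in that direction in 8.84% of all probe sets.

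Ctla4 had the largest change. Its level was 6.03, 6.08, 6.27 and 6.12 in the stimulated at-risk arrays, against 7.88, 7.98, 7.90 and 7.55 in the naïve at-risk arrays. All 4 stimulated arrays were more than 1 log2 unit below the lowest naïve array, and the fold change was -1.70 (SE 0.098, adjusted p = 4.96e-08 by limma). This was the probe set with the rank 16 by p among 22626.

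The 3 CD3 chains fell together. Cd3g measured 8.96, 8.96, 8.87 and 9.02 in stimulated at-risk arrays and 10.40, 10.36, 10.38 and 10.28 in naïve at-risk arrays, a difference of -1.40 with an SE of 0.25 (adjusted p = 0.00202 by limma). Cd3e measured 8.64, 8.55, 8.43 and 8.47 in stimulated and 9.78, 9.66, 9.80 and 9.72 in naïve at-risk arrays, a change of -1.22. Cd3d measured 9.38, 9.19, 8.91 and 9.18 in stimulated and 10.26, 10.31, 10.28 and 10.19 in naïve at-risk arrays, a change of -1.10. The arrays of each group lay close together in all 3 genes, with SDs of 0.051 to 0.19. The call of Cd3d was lost when any one of AF80, AF81, AF82, AF83, AF89, AF90 or AF91 was left out (adjusted p 0.0509 to 0.0732 by limma), while those of Cd3e and Cd3g held without each array in turn.

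Among the costimulatory receptors, the brighter Cd28 probe set averaged 8.70 ± 0.18 in stimulated and 9.57 ± 0.10 in naïve at-risk arrays (SD, n = 4 each), and it fell by 0.87 (adjusted p = 0.000392 by limma). The dimmer one fell by 1.37. Cd28 was thus called with both probe sets. Icos was called with its brighter probe set, which fell by 0.43 (adjusted p = 0.0369 by limma), and not with its dimmer one, at -0.29 (adjusted p = 0.337). The Icos call was lost without any one of AF80, AF81, AF82, AF88, AF90 or AF91.

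Cd5 averaged 7.15 ± 0.18 in stimulated and 8.11 ± 0.10 in naïve at-risk arrays (SD, n = 4 each), a fall of 0.96. Gata3 averaged 5.74 ± 0.21 and 6.88 ± 0.20 in the same order of groups, a fall of 1.14. Both were called. Thy1 lay between 7.45 and 7.71 in stimulated and between 8.43 and 8.53 in naïve at-risk arrays, and Lat between 8.41 and 9.08 in stimulated and between 9.16 and 9.52 in naïve at-risk arrays. The groups did not overlap in either gene, yet neither passed the test (Thy1 -0.93, adjusted p = 0.109; Lat -0.54, adjusted p = 0.128, by limma), whose error was estimated over all of Set 1. Without AF85, an array of neither group compared, both were called (adjusted p = 0.00637 and 0.0342 by limma). Over all alternatives their adjusted p ran from 5.25e-05 to 0.954 and from 0.0342 to 1. The upper ends came from a test of the fold itself (treat), and without it they were 0.213 and 0.308.

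The same injection in normal pups was read against 3 naïve arrays. All 10 genes fell, by 1.36-fold for Icos to 4.37-fold for Ctla4. By probe set 11 of 12 were called lower, where 5.76% of all probe sets were. The median change of the 10 genes was -1.246, against 0.0039 over all probe sets. In 7 genes the groups did not overlap (10.3% of all probe sets were lower without overlap), and in Cd3g, Icos and Thy1 they overlapped through AF85 alone.

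Ctla4 measured 6.56, 6.47, 6.33 and 6.36 in the stimulated normal arrays and 8.46, 8.75 and 8.47 in the naïve normal arrays. AF85 was not set apart in this gene, and the change was -2.13 (SE 0.11, adjusted p = 1.47e-08 by limma). Cd3d measured 9.07, 10.27, 8.15 and 8.88 in the stimulated arrays AF84, AF85, AF86 and AF87, against 10.57, 10.70 and 10.62 in naïve normal arrays. The stimulated arrays spanned more than 2 log2 units, of which AF85 formed the upper end and AF86 the lower, and the change was -1.54 (SE 0.31, adjusted p = 0.00408 by limma). Without AF85 and AF86 it was -1.66 (adjusted p = 3.84e-06), and the same 11 probe sets were called.

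Of the other CD3 chains, Cd3g fell by 1.38 and Cd3e by 1.247. Cd28 fell by 0.92 with its brighter and 1.16 with its dimmer probe set. Cd5 fell by 1.24, Gata3 by 1.198 and Icos by 0.44. The call of Icos was lost without any one of AF77, AF79, AF84, AF86 or AF87 (adjusted p 0.0551 to 0.108 by limma). Its adjusted p ran from 0.00786 to 0.119 over the alternatives other than treat, and to 1 with treat. Thy1 measured 7.68, 9.18, 7.21 and 7.45 in AF84, AF85, AF86 and AF87, against 9.08, 8.95 and 10.10 in the naïve arrays AF76, AF77 and AF79. It fell by 1.496 (adjusted p = 0.0118 by limma), but without AF79, its highest naïve array, the change was -1.14 and the call was lost (adjusted p = 0.0581, with a range of 6.61e-05 to 0.1 over all alternatives). The adaptor Lat averaged 8.86 ± 0.49 (SD, n = 4) in stimulated and 9.80 ± 0.15 (SD, n = 3) in naïve normal arrays, and it fell by 0.94. With only the stimulated and naïve normal arrays in the fit, 5 of 12 probe sets were called, and Cd3d, Cd3e, Cd3g, Icos, Thy1 and Lat were not (adjusted p 0.0501 to 0.119 by limma).

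**Figure D2:**
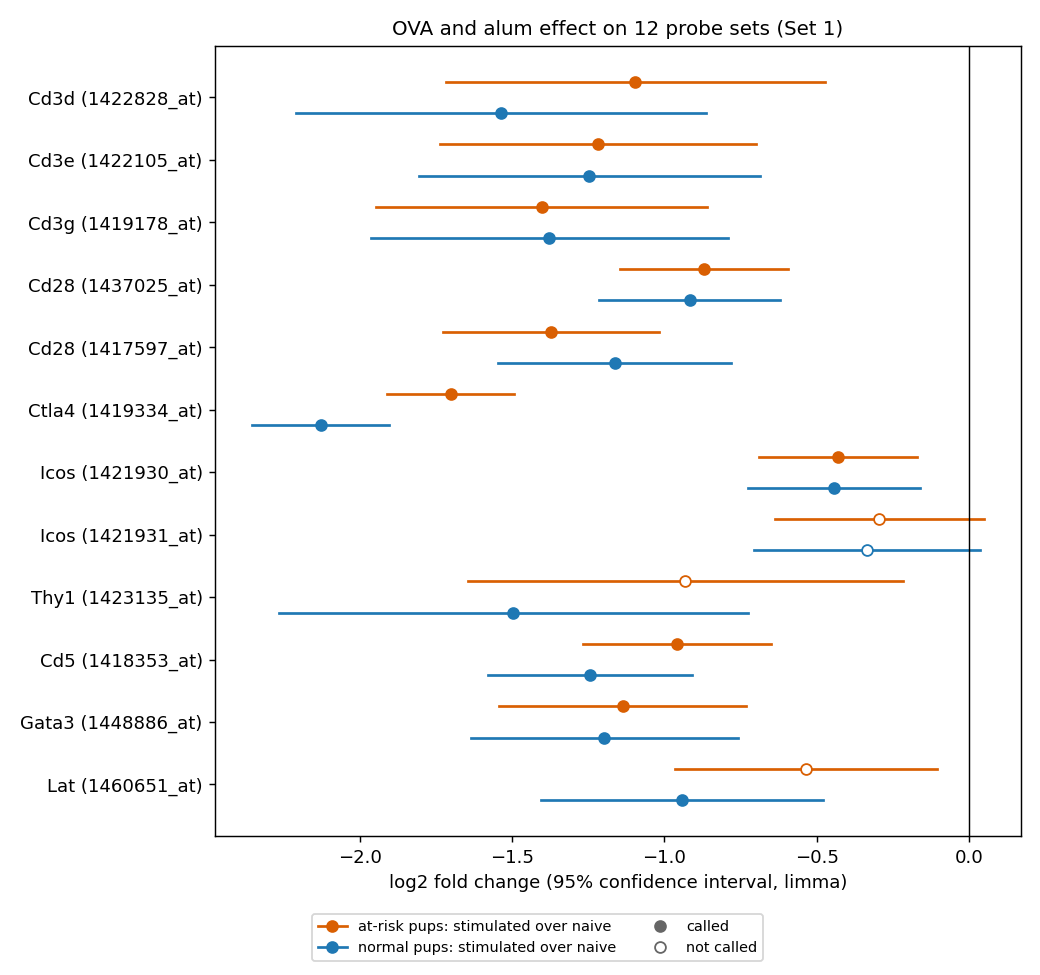
Log2 fold change of stimulated over naïve arrays of Set 1 (x axis) for the 12 probe sets (y axis), in at-risk pups (orange) and normal pups (blue), with 95% confidence intervals from limma. Filled points were called, and the lowest are those of Ctla4 at -1.70 and -2.13.

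Whether the response differed between at-risk and normal pups was tested as an interaction over the 15 arrays of Set 1. None of the 12 probe sets was called by limma, where 0.0486% of all probe sets were called. An unadjusted p under 0.05 was found for 1 of 12, against 8.41% of all probe sets, a like share. That one was Ctla4, whose fall was 0.43 smaller in at-risk pups (95% confidence interval 0.12 to 0.73, adjusted p = 0.417 by limma). The widest intervals were those of Thy1 (0.57, -0.49 to 1.62) and Cd3d (0.44, -0.47 to 1.36), and both took in a difference of 1 log2 unit. That of the brighter Cd28 probe set was narrower (0.05, -0.36 to 0.45). The interaction was positive in 9 of the 10 genes, with a median of 0.17 against -0.0154 over all probe sets. Those of Gata3 (0.06, SE 0.28), Cd28 (0.05, SE 0.19), Cd3e (0.03, SE 0.36) and Icos (0.01, SE 0.18) were smaller than their SEs. Only Ctla4 and Thy1 were followed here with arrays left out. How far the signs of the other genes rested on AF85 or AF86 was not tested.

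The comparison of naïve pups asked what maternal asthma alone changed. Ctla4 was the 1 of the 10 genes called, lower in naïve at-risk arrays, at 7.88, 7.98, 7.90 and 7.55 against 8.46, 8.75 and 8.47 in naïve normal arrays. No at-risk array reached a normal one. The fold change was -0.73 (SE 0.11, adjusted p = 0.00903 by limma), which ranked 14 among 22626 probe sets. In this comparison 0.239% of all probe sets were called lower. The spread was estimated over the 4 groups of Set 1. With the naïve arrays alone in the fit the call was lost at the same fold change (adjusted p = 0.151 by limma). The adjusted p of Ctla4 ran from 0.0047 to 0.151 over the alternatives other than treat, and to 1 with treat.

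All 10 genes had negative fold changes in naïve at-risk arrays, with a median of -0.41 against 0.0022 over all probe sets, and in 7 of them the groups did not overlap. That separation was seen in 5.39% of all probe sets. Cd28 measured 9.54, 9.45, 9.68 and 9.61 in naïve at-risk and 10.20, 10.00 and 10.14 in naïve normal arrays (-0.54, adjusted p = 0.104 by limma). Without AF86, an array of neither group, this probe set was called (adjusted p = 0.0449 by limma). Its adjusted p ran from 0.0449 to 0.249 over the alternatives other than treat, and to 1 with treat. Thy1 measured 8.51, 8.48, 8.43 and 8.53 in naïve at-risk and 9.08, 8.95 and 10.10 in naïve normal arrays, a fold change of -0.89 that was -0.53 without AF79. Lat (-0.52), Cd5 (-0.46), Cd3d (-0.37) and Cd3e (-0.34) also had no overlap between the groups, and no call. Cd3g (-0.23), Icos (-0.23) and Gata3 (-0.11) overlapped. In Gata3 the naïve normal arrays ran from 6.54 to 7.33 and enclosed those of the at-risk pups.

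After the injection the maternal comparison could be made in both sets, and over both with set as a term. There Cd28 and Ctla4 were called lower in stimulated at-risk arrays (3 of 12 probe sets, against 0.415% of all probe sets). Cd28 fell by 0.84 with each of its probe sets (adjusted p = 0.0031 and 0.0135 by limma) and Ctla4 by 0.52 (adjusted p = 0.0284). The call of Ctla4 was lost without any one of AF118, AF119, AF120 and AF121. All 10 genes had negative fold changes, with a median of -0.46 against -0.0079 over all probe sets. Cd3e was called as well without AF86 (-0.62, adjusted p = 0.0299 by limma) and without both AF85 and AF86 (-0.49, adjusted p = 0.0229). Its adjusted p ran from 0.00734 to 0.887 over the alternatives other than treat, and to 1 with treat.

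The sets were also read apart. In Set 1 none of the 12 probe sets was called by limma, and 3 had an unadjusted p under 0.05, both of Cd28 and that of Ctla4, against 7.31% of all probe sets. No probe set of the whole array was called lower there (0%), and 0.0707% were called higher. Cd28 measured 8.87, 8.49, 8.61 and 8.83 in stimulated at-risk and 9.29, 9.50, 8.77 and 9.22 in stimulated normal arrays of Set 1 (-0.49, adjusted p = 0.243). AF86 alone made the groups overlap. Ctla4 measured 6.03, 6.08, 6.27 and 6.12 in stimulated at-risk and 6.56, 6.47, 6.33 and 6.36 in stimulated normal arrays, with no overlap, as in 3.47% of all probe sets in this direction (-0.31, adjusted p = 0.387). The CD3 chains were between -0.31 and 0.07, with intervals that reached from -0.83 to 0.70. Without AF85 the fold changes of Cd3e (0.03), Cd3g (0.09), Thy1 (0.11), Gata3 (0.09) and Lat (0.11) turned positive. Without AF86 those of Cd3d and of the dimmer Icos probe set turned negative, to -0.24 and -0.08. All of these were uncalled.

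In Set 2, 6 of the 10 genes were lower in stimulated at-risk arrays: Cd28, Gata3, Cd3g, Cd3d, Cd3e and Thy1. By probe set 7 of 12 were called, all lower, against 2.04% of all probe sets. The median change of the 10 genes was -0.69, against -0.0038 over all probe sets. In 7 genes the groups did not overlap, as in 4.47% of all probe sets in this direction.

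Cd28 had the largest change. It measured 7.39, 7.73, 7.56, 7.80 and 7.37 in stimulated at-risk and 8.59, 8.82, 8.86 and 8.60 in stimulated normal arrays of Set 2. The 2.22-fold lower level (-1.15, SE 0.11, adjusted p = 0.000431 by limma) was called without each array in turn. The dimmer probe set gave -1.17, with a larger SE of 0.23, and lost its call without AF118 or AF119.

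The CD3 chains were called together in this set. Cd3d measured 9.10, 9.30, 9.36, 8.88 and 8.84 in stimulated at-risk and 9.84, 9.77, 9.82 and 9.85 in stimulated normal arrays (-0.72, adjusted p = 0.0054 by limma). Cd3e measured 8.66, 9.10, 9.17, 8.75 and 8.72 in stimulated at-risk and 9.56, 9.54, 9.57 and 9.57 in stimulated normal arrays (-0.68, adjusted p = 0.00734). The normal arrays were nearly level, with SDs of 0.036 and 0.013, while AF124 and AF125 stood above the other 3 at-risk arrays in both genes. The call of Cd3d was lost with all 24 arrays in the fit (adjusted p = 0.0518 by limma) and with a test of the fold itself (treat, 0.172), and its adjusted p ran from 0.000985 to 0.172 over all alternatives. In Cd3g the same 2 at-risk arrays stood above the other 3 (-0.77, adjusted p = 0.0249), and its call was lost without any one of AF118, AF119, AF120, AF121, AF126 or AF127.

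Gata3 measured 5.13, 5.70, 5.86, 5.38 and 5.32 in stimulated at-risk and 6.64, 6.42, 6.09 and 5.96 in stimulated normal arrays of Set 2 (-0.80, adjusted p = 0.0303 by limma), and lost its call without any one of AF118, AF119, AF120, AF126 or AF127. Thy1 fell by 0.62 (adjusted p = 0.0166) and lost its call without AF120 (adjusted p = 0.0635) and with all 24 arrays in the fit (0.139). Its adjusted p ran from 0.00304 to 0.139 over the alternatives other than treat, and to 0.604 with treat. Ctla4 had a fold change of -0.70 (adjusted p = 0.0594), with at-risk arrays from 5.05 to 5.93 below normal arrays from 6.03 to 6.39. It was called with median centring, array weights, 1 probe set per gene or all 24 arrays in the fit, and without AF124 or AF125 (adjusted p 0.00272 to 0.0484 by limma). Its adjusted p ran from 0.00272 to 0.177 over the alternatives other than treat, and to 0.987 with treat. Icos (-0.31, adjusted p = 0.109), Lat (-0.27) and Cd5 (-0.11) were not called. Cd5, an inhibitor of receptor signaling, thus had the smallest fold change of the 10 genes in this set, with a 95% confidence interval of -0.33 to 0.12.

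**Figure D3:**
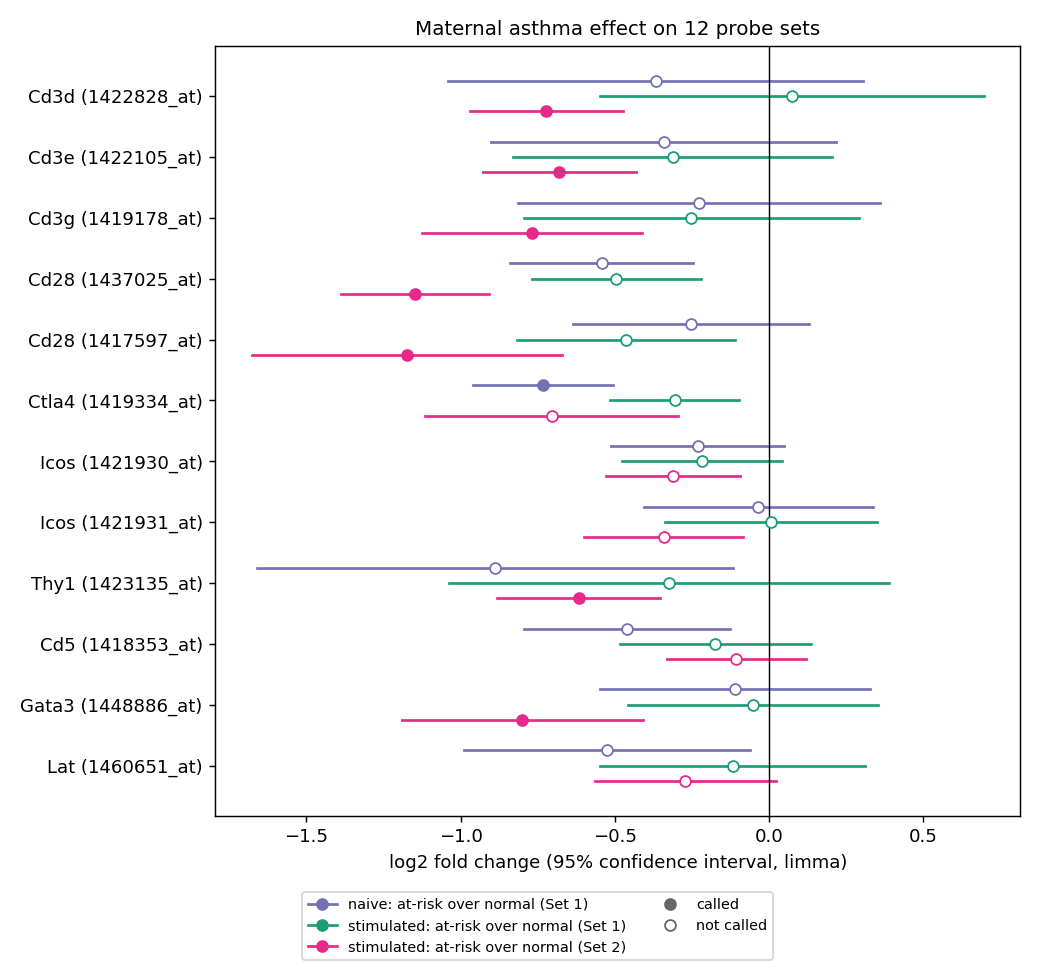
Log2 fold change of at-risk over normal arrays (x axis) for the 12 probe sets (y axis), in naïve pups of Set 1 (purple), stimulated pups of Set 1 (green) and stimulated pups of Set 2 (pink), with 95% confidence intervals from limma. Filled points were called: Ctla4 in naïve pups, none in Set 1 after the injection, and 7 probe sets in Set 2, led by Cd28 at -1.15.

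The difference between the sets was itself tested, as the interaction of set and maternal status over 17 arrays. None of the 12 probe sets was called by limma, where 1.79% of all probe sets were called. An unadjusted p under 0.05 was found for 3 of 12, against 16.3% of all probe sets. The 3 were those of Cd28 (-0.65, adjusted p = 0.101, and -0.71, adjusted p = 0.223) and Gata3 (-0.75, adjusted p = 0.183). With array weights these 3 were called (adjusted p = 0.0363, 0.0245 and 0.0285 by limma). The adjusted p of each reached 1 with treat, and at most 0.211, 0.433 and 0.357 over the other alternatives. Cd3d had -0.80 (95% confidence interval -1.63 to 0.04, adjusted p = 0.323 by limma), and it was called without AF85 (-1.19, adjusted p = 0.0212). Its adjusted p ran from 0.0212 to 0.511 over the alternatives other than treat, and to 1 with treat. Cd5 was the least different, at 0.07 (-0.32 to 0.46). Levels of the sets cannot be set against each other as a test, since they were preprocessed apart. As a description, the brighter Cd28 probe set was 1.13 lower in Set 2 than in Set 1 among stimulated at-risk arrays and 0.48 lower among stimulated normal arrays. The CD3 chains were 0.73 to 0.80 higher in Set 2 among normal arrays and between -0.07 and 0.36 among at-risk arrays.

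The naïve and stimulated maternal comparisons and the 2 allergen comparisons use some of the same arrays of Set 1, so their values are not independent of each other. Side by side, Ctla4 had -0.73 in naïve pups, -0.31 in stimulated pups of Set 1 and -0.70 in stimulated pups of Set 2, and Cd28 had -0.54, -0.49 and -1.15. Cd3d had -0.37, 0.07 and -0.72.

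The kinases and adaptors that work behind the receptor were followed as a list of 23 genes, of which 17 were measured. After the injection 9 of 17 were lower in at-risk pups and 8 of 17 in normal pups, and none was higher. Trat1, an adaptor of the receptor complex, fell by 1.62 in at-risk and 1.93 in normal pups, and Zap70, the kinase that binds phosphorylated CD3 chains, by 1.15 and 1.40. The coreceptor Cd4 fell by 0.67 and 0.61. The list median was -0.39 in at-risk and -0.38 in normal pups. Plcg1 (-0.11 and -0.16) and Vav1 (-0.03 and -0.02) were among those not called. Txk was called in at-risk pups (-1.12) and not in normal pups, and Fyb in normal pups (-0.38) and not in at-risk pups. In Set 2, 5 of 17 were lower in stimulated at-risk arrays, among them Cd8b1 (-1.10), Txk (-0.83, adjusted p = 0.00855 by limma), Cd247 (-0.69) and Trat1 (-0.58), while Grap2 (0.42) and Rasgrp1 (0.33) were higher. In naïve pups and in stimulated pups of Set 1 none of the 17 was called by limma, and 1 and 2 had an unadjusted p under 0.05. Over all probe sets that share was 15.8% in naïve pups and 7.31% in stimulated pups of Set 1. For the lists below, it was 20.5% after the injection in at-risk pups and 21.9% in Set 2.

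Of 12 other costimulatory and inhibitory receptors measured, 6 were lower after the injection in at-risk pups and 8 in normal pups. Cd27, a costimulatory receptor, fell by 1.42 in both. Lag3, an inhibitory receptor, fell by 0.89 in at-risk and 1.14 in normal pups, and Cd6, the chromosomal neighbour of Cd5, had fold changes of -1.62 and -1.51, both called. Slamf1, a receptor found on DCs as well as on T cells, went the other way and was higher by 1.90 in at-risk and 1.21 in normal pups. Havcr2, an inhibitory receptor that DCs also carry, was higher by 0.32 in normal pups. In Set 2, 4 of 12 were lower in stimulated at-risk arrays, among them Cd27 (-0.84) and Tnfrsf9 (-0.57), and Slamf1 was higher (0.97, adjusted p = 0.000268 by limma).

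The ligands of these receptors on antigen-presenting cells moved less. After the injection none of 13 was called in at-risk pups by limma (2 had an unadjusted p under 0.05), and Tnfsf9 (-0.58) and Pvr (-0.67) were lower in normal pups. In normal pups 8 of 13 had an unadjusted p under 0.05 by limma, against 27.8% of all probe sets. Fold changes were negative in 9 of 13 there, with a median of -0.12. In at-risk pups Cd80 and Cd86, the ligands that Cd28 and Ctla4 share, had fold changes of 0.10 and -0.04, and Icosl, the ligand of Icos, -0.01. In Set 2 Tnfsf9, the ligand of Tnfrsf9, was the 1 ligand called, lower by 0.82 in stimulated at-risk arrays. The median of the 13 ligands was between -0.12 and 0.02 in all 6 comparisons of 2 groups.

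Of 16 transcription factors of the T lineage, 9 were lower after the injection in at-risk pups, and 8 were lower and 1 higher in normal pups (Id3, 0.50). Tox, needed for T cell development, fell by 1.16 in at-risk and 1.53 in normal pups, and Eomes, a factor of cytotoxic T and NK cells, by 1.16 and 1.70. Foxp3, the factor of regulatory T cells, had -0.18 and -0.13 and was not called. In Set 2 Tbx21 (-0.63), Eomes (-0.80) and Tox (-0.81) were lower in stimulated at-risk arrays and Id3 (0.54) was higher.

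Markers of several cell types moved with the 10 genes. Of 11 other T cell markers measured, 10 were lower after the injection in at-risk pups, 10 in normal pups and 5 in stimulated at-risk arrays of Set 2. None was called by limma in naïve pups (median -0.12) or in stimulated pups of Set 1 (median -0.07), where 1 each had an unadjusted p under 0.05. All but Il7r and Ms4a4b are also in the lists above. Their mean level was 8.41 to 8.56 in stimulated at-risk, 8.37 to 8.96 in stimulated normal, 9.24 to 9.38 in naïve at-risk and 9.36 to 9.60 in naïve normal arrays of Set 1. In Set 2 it was 8.35 to 8.74 in stimulated at-risk and 8.943 to 9 in stimulated normal arrays. Cd8a was the 1 marker not called after the injection, at -0.15 in at-risk and -0.12 in normal pups. Cd8b1 had -0.99 and -0.84 and Cd4 -0.67 and -0.61, all called. Which cells carried these transcripts was not tested.

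Of 12 NK cell markers, 9 were lower after the injection in at-risk pups, 8 in normal pups and 9 in stimulated at-risk arrays of Set 2, and none was called in stimulated pups of Set 1 (1 had an unadjusted p under 0.05 by limma). Their mean level was 8.91 to 9.11 in stimulated at-risk, 8.65 to 9.43 in stimulated normal, 9.69 to 9.85 in naïve at-risk and 9.81 to 9.94 in naïve normal arrays of Set 1. In Set 2 it was 8.44 to 8.83 in stimulated at-risk and 9.31 to 9.36 in stimulated normal arrays. Ncr1, a receptor that defines NK cells, fell by 1.17 in at-risk and 1.23 in normal pups after the injection, and by 1.27 in Set 2.

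Platelet markers moved the other way. Of 10 measured, 10 were higher after the injection in at-risk pups, 9 in normal pups and 9 in stimulated at-risk arrays of Set 2. Over all 22626 probe sets, the calls in either direction numbered 1782, 2599 and 1045 in these comparisons. Of those, 783, 1303 and 461 were lower. The mean level of the platelet markers was 9.18 to 10.06 in stimulated at-risk, 9.02 to 9.47 in stimulated normal, 5.72 to 6.02 in naïve at-risk and 5.75 to 5.95 in naïve normal arrays of Set 1. In Set 2 it was 7.73 to 9.12 in stimulated at-risk and 6.27 to 6.49 in stimulated normal arrays. Of 11 macrophage markers, 4 were lower after the injection in at-risk pups, 7 in normal pups and 3 in stimulated at-risk arrays of Set 2, and of 10 B cell markers 5 were higher in Set 2. The 14 conventional DC markers had no call in at-risk pups by limma (3 had an unadjusted p under 0.05), 3 higher in normal pups and 1 higher in Set 2. Erythroid markers were higher after the injection in 7 of 8 genes in at-risk and in normal pups, and in 3 of 8 in stimulated at-risk arrays of Set 2. Neutrophil markers had 2 higher of 9 in at-risk pups, 1 higher and 5 lower in normal pups, 1 higher in stimulated at-risk arrays of Set 1, and 1 lower in those of Set 2 (Csf3r, -1.04). Endothelial markers had 5 higher and 1 lower of 11 in at-risk pups, 2 higher and 1 lower in normal pups, and 6 higher in Set 2. Of 6 plasmacytoid DC markers, 1 was lower after the injection in at-risk and in normal pups (Ccr9), and 3 were lower in stimulated at-risk arrays of Set 2: Bst2 (-0.66), Tcf4 (-0.47) and Ccr9 (-0.49). Plasma cell markers, and type 2 innate lymphoid and mast cell markers, had 1 or 2 calls after the injection, all lower, and none in Set 2 by limma (3 of 6 and 3 of 10 had an unadjusted p under 0.05). What part these cell types had in the changes of the 10 genes was not tested.

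**Figure D4:**
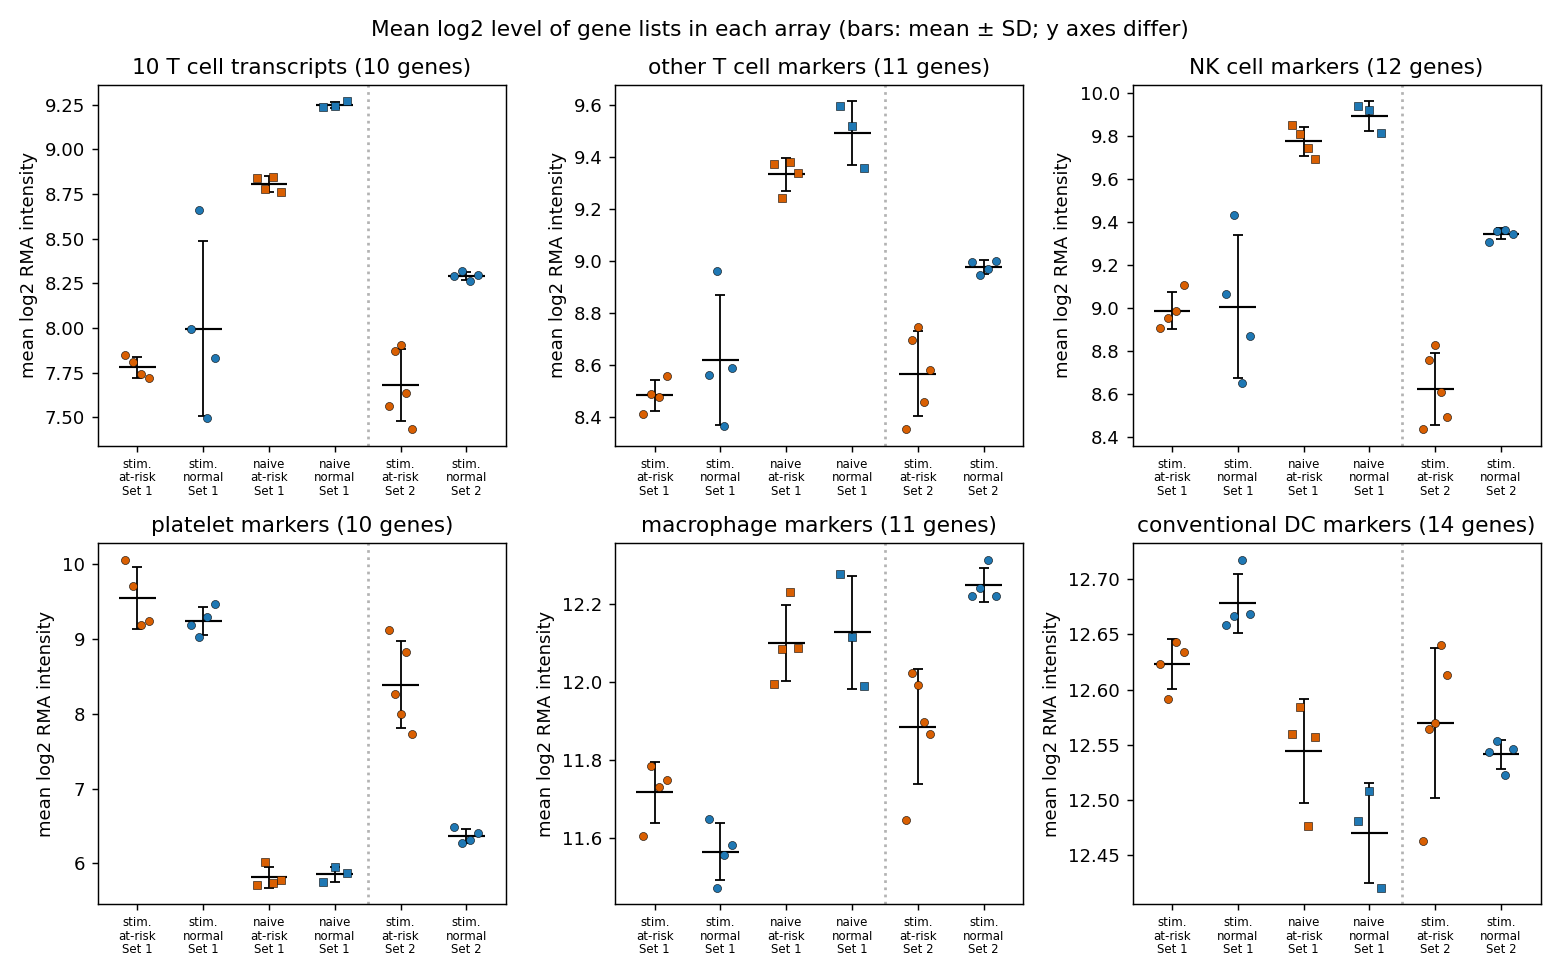
Mean log2 RMA intensity (y axis) of the 10 genes and of 5 marker lists in each of 24 arrays, by group (x axis), with stimulated arrays as circles, naïve arrays as squares, at-risk arrays in orange and normal arrays in blue. Bars give the mean ± SD, and the y axes differ. Other T cell and NK cell markers are lower in stimulated than in naïve arrays, with AF85 highest and AF86 lowest among the stimulated normal arrays of Set 1. Platelet markers are higher in stimulated arrays, and conventional DC markers stay between 12.42 and 12.72.

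The genes whose levels were most like the mean of the 10 over the 24 arrays, after the mean of each set was subtracted, were Ifng, Trbv1, Trav9d-3, Cd27, Ctsw, Cd160, Sytl2 and Ms4a4b, with Pearson r of 0.979 to 0.954. The arrays share their groups, so these values describe the order of groups as well as single arrays. With group means subtracted as well, r was 0.94 for Trbv1 and 0.95 for Trav9d-3, which are variable segments of the T cell receptor, and 0.68 for Sytl2. Among the 10 genes themselves, the level of each followed the mean of the other 9 with r of 0.86 (Cd28) to 0.98 (Cd3e). With group means subtracted the CD3 chains kept 0.89 to 0.96, while Ctla4 had 0.32, which was 0.16 in Set 1 and 0.75 in Set 2. In Set 2 alone it was 0.36 for Cd28, 0.36 for Lat and 0.32 for Cd5. Within the stimulated normal arrays of Set 1, Ctla4 ran from 6.33 to 6.56 and Cd3d from 8.15 to 10.27.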

How the data were processed

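The authors deposited linear RMA intensity values of Affymetrix's own probe sets for 24 arrays. By the methods, Set 1 and Set 2 were preprocessed apart with quantile normalization and median polish, and 1 array of each set was left out after principal component analysis. The sources used here do not give the version of RMA. Set membership was read from the array number in the labels. The design had assumed log2 values, so log2 was taken, with no pseudocount and no filter on low values. The 64 control probe sets were left out, and 22626 were tested. Of these, 20380 had 1 gene symbol, 691 several and 1555 none.

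Comparisons were fitted with limma 3.58.1 (lmFit and eBayes, R 4.3.3) and adjusted by Benjamini-Hochberg over all probe sets. Set 1 comparisons used its 15 arrays with 1 mean per group, the stimulated maternal comparison 17 arrays with set as a term, and Set 2 its 9 arrays. The fit was tested on simulated data. Calls needed an adjusted p not above 0.05 and a fold of at least 1.25, taken from the difference of the mean log2 levels. By rule, all 10 genes are named, with up to 4 called genes of each list by smallest adjusted p, defining markers and the 8 genes most alike. Plcg1, Vav1, Fyb, Foxp3, Cd80, Cd86, Icosl, Cd8a, Cd8b1 and Il7r were named after their values were seen. The genes and lists were chosen with earlier results of these data known. Alternatives were quantile normalization over all arrays, median centring, a filter on probe sets under the 40th percentile, trend and robust, array weights, no fold threshold, treat, 1 probe set per gene, other samples in the fit, no term for set, each set alone and each array left out. Leaving out AF85 and AF86 together was chosen after seeing the data. Methylation arrays of the study were not used here. Promoters and neighbours came from RefSeq (GRCm38.p6). Python 3.11.15, pandas 2.3.3, numpy 2.4.6 and matplotlib 3.10.9 were used.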

Additional observations from a re-analysis of the deposited data

How the results depend on the processing

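No paired analysis was possible because the groups compared share no replicate numbers. Of 1952 values of single probe sets under the alternatives, 1835 kept their direction and their side of the threshold. Of the rest, 70 lost a call, 26 gained one and 21 changed sign, the last all uncalled. The 1835 include values that were uncalled as fitted and stayed so, such as those of the maternal comparison in stimulated pups of Set 1. Their share thus does not measure how stable the calls were. In naïve pups the count of called probe sets of the 10 genes was 1 of 12. It was 0 with treat, 0 with only the naïve groups in the fit, and 1 to 2 with each array left out. It was also 0 without dim probe sets, but that filter took out Ctla4, the 1 probe set called, so its call was not tested there. In stimulated pups of both sets it was 3, and it was 0 with treat, 1 with no term for set, 0 in Set 1 alone, 7 in Set 2 alone and 2 to 4 with each array left out. In Set 1 it was 0 under every alternative run, 0 to 0 with each array left out. In Set 2 it was 7, 1 with treat, 10 with array weights and 4 to 9 with each array left out. After the injection it was 9 in at-risk pups (7 to 11 with each array left out) and 11 in normal pups (7 with treat, 5 with only the normal groups in the fit, 9 to 11 with each array left out). Maternal by allergen gave 0 (0 to 0), and maternal by set 0, with 3 under array weights and 0 to 1 with each array left out. The cause of these changes was not tested.

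Single values were followed for each probe set in the maternal and allergen comparisons. In the interactions they were followed for Ctla4 and Thy1 (maternal by allergen) and for Cd28, Cd3d, Cd5 and Gata3 (maternal by set). The signs of the other probe sets were not followed there. Among the values followed, those that changed sign were as follows. In Set 1 alone Cd3d had 0.075 and the dimmer Icos probe set 0.0059. In Set 1 that Icos probe set had -0.0068 with quantile normalization over all arrays, -0.0054 with median centring and -0.090 with array weights. With each array left out, the fold changes in Set 1 ran from -0.24 to 0.47 for Cd3d, -0.55 to 0.027 for Cd3e, -0.48 to 0.094 for Cd3g, -0.55 to 0.11 for Thy1, -0.20 to 0.091 for Gata3, -0.27 to 0.11 for Lat and -0.085 to 0.10 for the dimmer Icos probe set. In naïve pups they ran from -0.12 to 0.089 for the dimmer Icos probe set and -0.33 to 0.058 for Gata3, and for maternal by set from -0.042 to 0.16 for Cd5. Over all 22626 probe sets, the calls ran from 5 to 269 in naïve pups (77 as fitted), 0 to 1045 in stimulated pups of both sets (391), 0 to 71 in Set 1 (16), 187 to 3136 in Set 2 (1045), 512 to 2171 after the injection in at-risk pups (1782) and 579 to 3224 in normal pups (2599). For the interactions they ran from 0 to 42 for allergen (11) and 29 to 2454 for set (404). The number of arrays, 3 to 5 a group within a set, limits the precision.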
